A study of Mus musculus with 18 samples.

Results

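Old soleus was compared with old tibialis anterior (TA) over all genes with enough counts. The members are the 3 libraries titled as old soleus and the 3 titled as old TA, 6 of the 18 libraries of the series, and they were chosen by title and not by any measured value. All mice were wild type, with no transgene, deletion or treatment named in the labels, and young soleus and young TA (3 libraries each, also wild type) were used for 1 comparison with age. The labels do not state the numeric ages, the sex or the strain. They also do not state whether muscles were taken from shared animals, or whether each library is a separate animal. The p-values therefore measure spread between libraries, estimated over 16 libraries of the series in 6 groups. Expression was measured by sequencing of messenger RNA, as read counts scaled to a common library size and composition (CPM). A gene was called where the adjusted p of edgeR's quasi-likelihood test (Benjamini-Hochberg over all genes) was under 0.05, and a positive log2 fold change means higher in soleus.

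The soleus is a postural calf muscle that works for long periods and, in mice, mixes slow type I fibres with oxidative fast type IIA fibres. The TA lifts the foot in short bursts and is made mostly of fast glycolytic fibres of types IIX and IIB. Slow and fast fibres build their contractile apparatus from different members of the same gene families: myosin heavy and light chains, troponins, tropomyosins, alpha-actinins, calcium pumps. They also differ in fuel. Fast glycolytic fibres burn glycogen to lactate, and slow and type IIA fibres take up and oxidise fatty acids and lactate.

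Of 10859 genes tested, 2087 (19.2%) were called between old soleus and old TA. Of these, 1076 (9.91% of genes tested) were higher in soleus and 1011 (9.31%) were higher in TA. In 1996 of the called genes all 3 soleus libraries lay on one side of all 3 TA libraries, and over all genes tested such a gap was found in 3706 (34.1%). The size of the difference was at least 1 on the log2 scale in 1348 called genes. Differences of 3 or more were less balanced, with 182 genes higher in soleus and 51 higher in TA. In 68 called genes old TA had no read at all, and in 6 old soleus had none. The log2 fold changes of such genes are fitted values and not measured folds, and they can fall among the 182 and the 51. The old TA libraries were the shallower ones, and the part of depth in this imbalance was not tested. The median log2 fold change over all genes was 0.08.

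**Figure D1:**
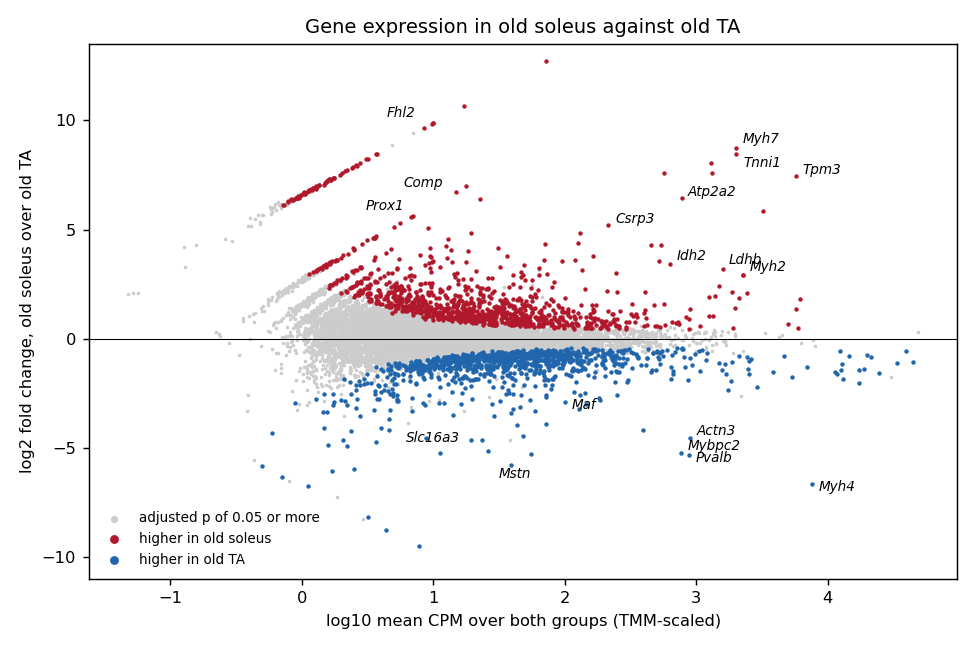
Each point is 1 gene, with the log10 of its mean CPM over the 6 old libraries on the x axis and the log2 fold change of old soleus over old TA on the y axis; red and blue points are the 1076 and 1011 called genes and grey points the rest. Slow contractile genes such as Myh7 and Tpm3 lie at the top right and Myh4, Pvalb and Mybpc2 at the lower right, and the slanted bands of points at the left are genes with no or very few reads in old TA, whose fitted values are not measured folds.

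The old TA libraries were shallow, with 1154747 to 1866652 reads against 5212732 to 17092868 in old soleus. Reads of mitochondrially encoded genes made up 27.0% to 29.2% of an old TA library and 11.3% to 19.7% of an old soleus library. The 10 most abundant genes took 33.2% to 34.7% and 24.9% to 25.5%. The composition scaling (TMM) compensates for such shares. With totals alone as the scale, the median of all genes moved by 0.39 towards soleus. On that scale 28.7% of the 10859 genes tested were called, 2667 higher in soleus and 452 higher in TA. All log2 fold changes below are relative to the TMM scale, and for most lists the counts on the scale of totals are also given. List counts are to be read beside the shares over all genes tested. On the TMM scale these were 9.91% higher in soleus and 9.31% higher in TA.

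The contractile genes separated the muscles as their labels say. Of 12 slow-fibre contractile genes, 11 were higher in old soleus, none was higher in TA and 1 did not pass. Their median log2 fold change was 7.53, or 6.66 with the 2 genes that had no read in TA held at their lower bound. Of 13 fast-fibre contractile genes, 12 were higher in old TA, 1 was higher in soleus, and the median was −1.64. The fast genes thus had smaller log2 fold changes. Most of them remained abundant in soleus, and all slow genes but Actn2 and Mybpc1 were at 128 CPM or less in TA.

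Myh7, the slow (type I) myosin heavy chain, read 5586, 2368 and 3960 CPM in the old soleus libraries and 2.37, 17.4 and 6.01 CPM in old TA. Its log2 fold change was 8.73 (SE 0.54, adjusted p = 1.1e-07), and 9.97 without old TA library 2, the highest of the 3. Myh4, the type IIB heavy chain, read 15475, 16229 and 13543 CPM in old TA and 19.9, 195 and 230 CPM in old soleus. The groups were far apart (log2 fold change −6.68, SE 1.27, adjusted p = 0.0043), and soleus library 1 held far less Myh4 than the other two. Myh1, the type IIX chain, was lower in soleus by less: 1347, 608 and 1117 CPM against 5462, 3359 and 5380 (log2 fold change −2.21, SE 0.34). Myh2, the type IIA chain, was the fast-list gene that went the other way, at 4815, 3098 and 4141 CPM in soleus and 620, 371 and 622 CPM in TA (log2 fold change 2.90, SE 0.28, adjusted p = 2.9e-07).

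Because the deposited TPM values correct for transcript length, they allow related genes to be set against each other. Within the summed TPM of Myh7, Myh2, Myh1 and Myh4, Myh7 made up 47.0%, 38.0% and 42.0% in the old soleus libraries and at most 0.088% in old TA. Myh2 made up 41.3%, 49.6% and 44.0% in soleus and 2.92%, 1.87% and 3.24% in TA. Myh7 was the larger share in soleus library 1 and Myh2 in libraries 2 and 3. In TA, Myh4 made up 71.7%, 81.2% and 69.2% and Myh1 25.4%, 16.9% and 27.5%, against 0.168%, 2.99% and 2.38% (Myh4) and 11.5%, 9.38% and 11.7% (Myh1) in soleus. Myh2 (chr11:67171027-67197517), Myh1 (chr11:67200052-67224575) and Myh4 (chr11:67238029-67260446) lie side by side on the plus strand of chromosome 11 (GRCm38, GENCODE M21), apart from Myh7 on chromosome 14, and are close in sequence, so reads may have been divided between them with error. Each of the 4 shares differed without overlap between the muscles.

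**Figure D2:**
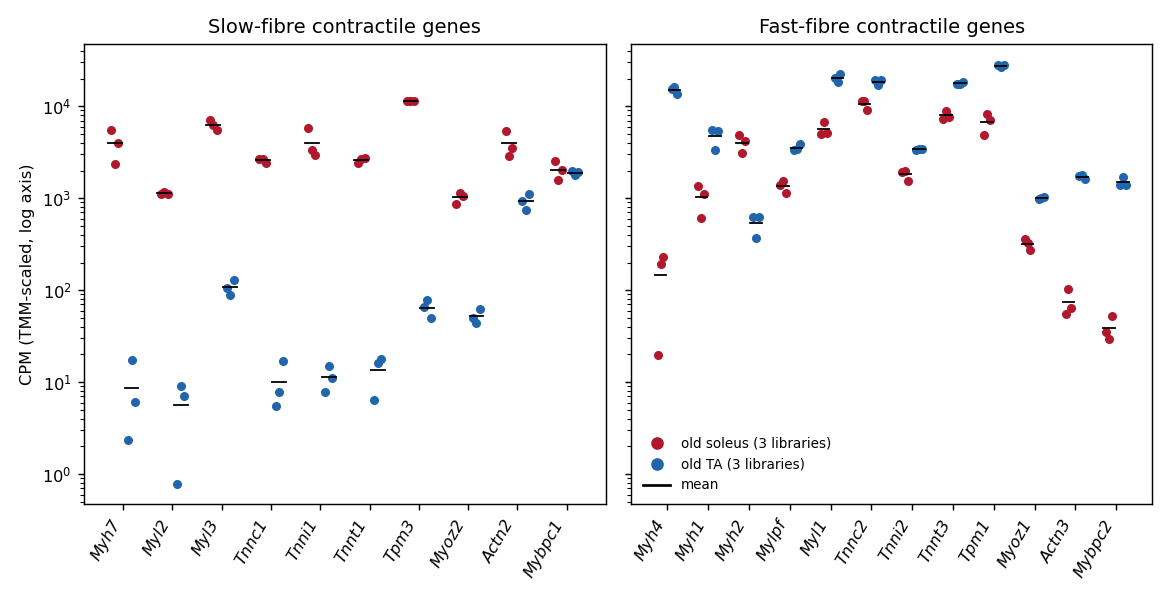
CPM (log axis) of 10 slow-fibre and 12 fast-fibre contractile genes in each old soleus library (red) and each old TA library (blue), with the group mean as a bar. Slow genes other than Mybpc1 and Actn2 fall to between 0.789 and 128 CPM in TA, and fast genes other than Myh4, Actn3 and Mybpc2 stay above 250 CPM in soleus.

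The light chains and thin filament followed the same pattern. Myl3 and Myl2, the slow essential and regulatory myosin light chains, read 7067, 6286 and 5473 CPM and 1112, 1179 and 1103 CPM in soleus, against 106, 89.5 and 128 CPM and 0.789, 9.02 and 7.02 CPM in TA. Their log2 fold changes were 5.87 (SE 0.26) and 7.61 (SE 0.40), and the Myl2 value was 8.32 without old TA library 2. Tnnc1, Tnni1 and Tnnt1 encode the slow calcium-binding, inhibitory and tropomyosin-binding troponins. They differed by 8.06 (SE 0.31), 8.44 (SE 0.36) and 7.60 (SE 0.28) on the log2 scale, with TA levels of 5.53 to 18 CPM. Tpm3, the slow tropomyosin, read 11502, 11505 and 11345 CPM in soleus and 66.3, 77.5 and 50.1 CPM in TA, with the smallest adjusted p of the slow list (8.7e-18). Their fast counterparts Tnnc2, Tnni2 and Tnnt3 were higher in TA by only −0.79 (SE 0.17), −0.91 (SE 0.17) and −1.16 (SE 0.16) on the log2 scale.

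As shares of a pair (summed TPM), the slow gene therefore stayed in the minority in soleus for some proteins and not for others. The troponin C share of Tnnc1 was 18.1%, 18.1% and 19.9% in old soleus, and the troponin T share of Tnnt1 26.6%, 23.9% and 26.9%. The troponin I share of Tnni1 was 67.1%, 54.9% and 57.5%, and the tropomyosin share of Tpm3 over Tpm1 was 71.1%, 59.1% and 62.3%. In old TA each of these 4 shares was under 0.4%. Actn2 and Actn3, the alpha-actinins that crosslink actin at the Z-disc, behaved otherwise: Actn2 held 94.7% to 98.6% of the pair in soleus and still 21.3% to 31.0% in TA. Mybpc1, slow myosin binding protein C, held 98.0% to 99.1% in soleus and 51.7% to 57.9% in TA, since its own level did not pass the test (log2 fold change 0.10) and its partner Mybpc2 read 29.3 to 52.7 CPM in soleus and 1386 to 1712 CPM in TA.

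**Figure D3:**
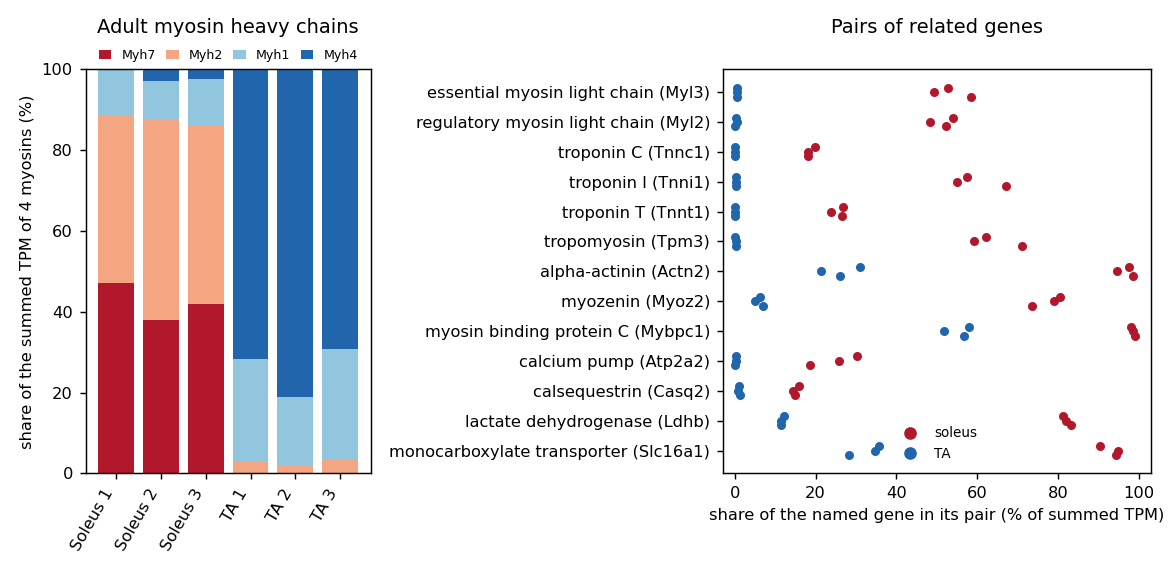
Left, the shares of 4 adult myosin heavy chain genes in their summed TPM, as stacked bars for each old library; right, the share of the named gene in its pair of related genes for each old soleus (red) and old TA (blue) library. Soleus bars are mainly Myh7 and Myh2 and TA bars mainly Myh4 and Myh1, and red and blue points are apart in all 13 pairs.

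In all, 17 such shares were compared, those of 13 pairs and of 4 myosins. None overlapped between old soleus and old TA. The two-sided exact permutation test of 3 against 3 gave p = 0.1 for each (0.1 after adjustment over the 17), which is the smallest p this design allows.

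The stretches before the transcription start of some of these genes are shown, since paired genes moved in opposite directions. They are 250 bases up to the start, from RefSeq on GRCm38.p6, read 5′ to 3′ on the gene's strand, and capitals mark matches to 6 muscle-related motifs searched on both strands. M-CAT, with the letters CATTCC, is the site of TEAD factors. The E-box searched was CAGCTG, a form preferred by MyoD and its relatives. The core searched for the MEF2 family was CTANNNNTAG. The CArG box is the site of serum response factor. The nuclear receptor element searched was AAGGTCA, known as a site of oestrogen-related receptors. TGCTGAC is part of the site of Maf factors. Matches were allowed to overlap. The first 4 genes were higher in old soleus and the last 3 in old TA. The order is Myh7 (chr14:54994627-54994876, minus strand), Myl3 (chr9:110763428-110763677, plus strand), Tnnc1 (chr14:31208062-31208311, plus strand), Tpm3 (chr3:90072401-90072650, plus strand), Myh4 (chr11:67237562-67237811, plus strand), Tnnc2 (chr2:164779735-164779984, minus strand) and Tpm1 (chr9:67049214-67049463, minus strand). The start used for Myh4 lay 217 bases from that of its most-read transcript, and for the other genes 0 to 32 bases.
Myh7: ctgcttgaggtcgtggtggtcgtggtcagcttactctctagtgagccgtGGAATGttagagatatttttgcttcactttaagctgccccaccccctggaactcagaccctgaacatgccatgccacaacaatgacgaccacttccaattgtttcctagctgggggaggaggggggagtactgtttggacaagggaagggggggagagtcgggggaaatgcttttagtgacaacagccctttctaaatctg
Myl3: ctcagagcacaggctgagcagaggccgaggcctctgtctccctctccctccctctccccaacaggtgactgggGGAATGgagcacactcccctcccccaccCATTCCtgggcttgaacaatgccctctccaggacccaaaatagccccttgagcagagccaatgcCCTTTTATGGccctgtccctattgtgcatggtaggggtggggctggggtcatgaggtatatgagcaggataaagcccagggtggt
Tnnc1: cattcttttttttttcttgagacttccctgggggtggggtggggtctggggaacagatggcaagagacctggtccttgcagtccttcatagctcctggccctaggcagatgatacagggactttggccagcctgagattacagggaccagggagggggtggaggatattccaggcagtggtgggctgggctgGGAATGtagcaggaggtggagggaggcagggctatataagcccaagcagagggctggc
Tpm3: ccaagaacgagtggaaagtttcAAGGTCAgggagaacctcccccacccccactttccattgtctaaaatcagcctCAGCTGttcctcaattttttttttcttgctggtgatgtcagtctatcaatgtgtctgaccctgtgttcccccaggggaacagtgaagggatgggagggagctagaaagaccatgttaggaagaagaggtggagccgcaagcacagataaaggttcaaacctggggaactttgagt
Myh4: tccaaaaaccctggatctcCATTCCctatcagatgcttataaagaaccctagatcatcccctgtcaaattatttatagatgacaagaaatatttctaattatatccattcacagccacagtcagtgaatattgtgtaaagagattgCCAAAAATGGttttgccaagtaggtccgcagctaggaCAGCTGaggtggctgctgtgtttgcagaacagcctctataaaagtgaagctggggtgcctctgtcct
Tnnc2: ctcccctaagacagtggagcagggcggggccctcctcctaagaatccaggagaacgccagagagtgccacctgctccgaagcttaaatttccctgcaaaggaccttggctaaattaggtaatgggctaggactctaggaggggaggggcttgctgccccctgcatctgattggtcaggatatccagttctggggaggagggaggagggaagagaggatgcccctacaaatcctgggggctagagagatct
Tpm1: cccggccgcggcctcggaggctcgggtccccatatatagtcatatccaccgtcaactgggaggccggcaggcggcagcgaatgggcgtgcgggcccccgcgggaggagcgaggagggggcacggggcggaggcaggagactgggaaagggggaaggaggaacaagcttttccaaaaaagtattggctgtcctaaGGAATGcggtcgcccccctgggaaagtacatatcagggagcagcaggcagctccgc

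Tnnc2 held no match. M-CAT was present in 3 of the 12 slow and 5 of the 8 fast contractile genes that had an entry, in 10.3% of the 8440 tested genes with one, in 14.1% of those higher in old soleus and in 9.95% of those higher in old TA. The E-box CAGCTG was present in 5 of 12 slow and 3 of 8 fast genes and in 11.8% of all. The MEF2 core was found in 1 slow gene, in no fast gene and in 2.82% of all, the CArG box in 1 of each and in 1.13%. AAGGTCA matched 2 slow genes, no fast gene and 2.59% of all, and TGCTGAC 1 slow gene, no fast gene and 3.05%. The slow genes matched were Tpm3 and Myh7b for AAGGTCA and Myh7b for TGCTGAC. The starts used for Myh7b, Myl2 and Myl1 lay 22208, 7762 and 9702 bases from those of their most-read transcripts. Of the 8440 genes, 6385 had a start within 100 bases of the most-read one, so some windows counted may not be the promoters in use. A match describes letters in this window and not a bound site.

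Calcium handling split within its gene families. Of 21 genes tested, 5 were higher in old soleus, 8 were higher in old TA and 8 did not pass (6, 6 and 9 with totals as the scale). Without soleus library 3 or any 1 of the TA libraries, 3 were higher in soleus. Atp2a2, the slow calcium pump of the sarcoplasmic reticulum, read 1582, 1384 and 1623 CPM in soleus and 7.11, 25.2 and 20.1 CPM in TA (log2 fold change 6.43, SE 0.31). The fast pump Atp2a1 was higher in TA by −1.28 (SE 0.23), and it remained the larger part of the pair in soleus, where Atp2a2 made up 18.6%, 25.7% and 30.2% of their summed TPM. Casq2 and Casq1, which bind calcium inside the store, moved apart by 2.61 (SE 0.22) and −1.50 (SE 0.16). Pvalb encodes parvalbumin, the calcium buffer of fast fibres. It read 18.3, 80.8 and 31.2 CPM in soleus and 1656, 1794 and 1697 CPM in TA (log2 fold change −5.33, SE 0.58), and the difference was −6.14 without soleus library 2, the highest of the 3. Sln, sarcolipin, an inhibitor of the pump, was higher in soleus at 823, 1161 and 881 CPM against 30.8, 39.7 and 179 CPM (log2 fold change 3.57, SE 0.54, or 4.78 without old TA library 3). The channels at the centre of excitation, Ryr1 and Cacna1s, had log2 fold changes of −0.27 and −0.02 and did not pass.

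Glycogen breakdown and glycolysis were higher in old TA along nearly the whole route. Of 28 genes, 23 were higher in TA, 1 was higher in soleus and 4 did not pass, with a median log2 fold change of −1.43. On the scale of totals the counts were 20, 2 and 6. Without TA library 2, 20 were higher in TA, and without any other old library 22 were. Without soleus library 2, 2 were higher in soleus. At the head of the route, the phosphorylase kinase subunits Phka1 and Phkg1 differed by −2.70 (SE 0.18) and −2.47 (SE 0.20), and the muscle phosphorylase Pygm by −1.62 (SE 0.19). Phka1 read 52.9, 37.3 and 56.3 CPM in soleus and 331, 332 and 290 CPM in TA. The enzymes Pfkm, Aldoa, Eno3 and Pkm lay between −1.04 and −1.78. Gpd1, of the glycerol phosphate shuttle, read 56.4, 40.5 and 41.4 CPM in soleus and 298, 297 and 377 CPM in TA (−2.80, SE 0.19). The gene higher in soleus was Gyg, which primes glycogen synthesis (0.57, SE 0.14), and Gys1 (glycogen synthase) and Hk2 (hexokinase) did not pass at 0.27 and −0.16.

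Lactate handling held an opposed pair. Ldhb, the heart-type lactate dehydrogenase subunit that favours use of lactate, read 3703, 2485 and 2386 CPM in soleus and 297, 313 and 320 CPM in TA (3.21, SE 0.20). Ldha, the muscle-type subunit, read 909, 675 and 693 CPM in soleus and 2827, 3028 and 2898 CPM in TA (−1.94, SE 0.17). Ldhb made up 81.2% to 83.2% of the pair in soleus and 11.3% to 12.1% in TA. The lactate exporter Slc16a3 (MCT4) was close to undetected in soleus, at 1.56, 1.37 and 1.44 CPM against 37.9, 36.7 and 38.1 CPM in TA (−4.64, SE 0.29, adjusted p = 4.7e-12). Slc16a1 (MCT1), known for lactate uptake, did not pass at 0.29.

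Fatty acid genes went towards soleus by smaller steps. Of 26 genes, 19 were higher in old soleus, 1 (Ucp3, a mitochondrial uncoupling protein, −1.22) was higher in TA and 6 did not pass, and the median was 0.66 (24, 0 and 2 with totals as the scale). The call of Ucp3 was lost without old TA library 1 (−0.94, adjusted p = 0.080). The uptake genes Fabp3 and Lpl had the smallest adjusted p of the list. Fabp3, the heart-type fatty acid binding protein, read 3073, 2559 and 1945 CPM against 477, 480 and 457 CPM (2.42, SE 0.19). Lpl, lipoprotein lipase, read 2926, 3031 and 3151 CPM against 630, 681 and 732 CPM (2.16, SE 0.16). The transporter Slc27a1 differed by 1.86 (SE 0.29). Enzymes of beta-oxidation such as Acaa2 (1.19, SE 0.16), Eci1 (1.17, SE 0.18), Acadvl (1.0, SE 0.18), Hadha (0.75, SE 0.16) and Hadhb (0.65, SE 0.15) had smaller differences. Acadl and Acadm did not pass, and neither did the uptake gene Cd36.

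The shared end of oxidation differed little in nuclear-encoded message on the TMM scale. Of 44 nuclear genes of oxidative phosphorylation, 3 were higher in soleus, 1 was higher in TA and 40 did not pass, and the median was 0.02. With totals as the scale 21 were called higher in soleus, none in TA, and the median was 0.41, so this list depends on the scale. Of 18 citric acid cycle genes, 2 were higher in soleus, 3 were higher in TA and 13 did not pass (8, 1 and 9 with totals). Over all genes tested, 19.2% were called on the TMM scale, both directions together. Without any 1 of the old TA libraries, 1 cycle gene was called in each direction, and without soleus library 1 the counts were 1 and 2. The phosphorylation list had 2, 1 and 2 calls, all towards soleus, without TA libraries 1, 2 and 3, 1 towards soleus and 2 towards TA without soleus library 2, and 6 towards soleus without soleus library 3. Without soleus library 1 there were 3, all towards soleus. The 2 isocitrate dehydrogenase systems moved apart: Idh2, the NADP-dependent mitochondrial enzyme, read 1456, 906 and 1118 CPM in soleus and 103, 107 and 110 CPM in TA (3.44, SE 0.23), and Idh3a, of the NAD-dependent enzyme of the cycle, read 884, 952 and 966 CPM against 1878, 2021 and 2164 CPM (−1.11, SE 0.15).

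The mitochondrially encoded genes were higher in TA. Of 13, 12 were called higher in TA, none in soleus, and the median was −1.44 (9 and −1.05 with totals as the scale). mt-Nd1, a complex I subunit, read 40101, 34792 and 36391 CPM in TA and 7053, 15359 and 14673 CPM in soleus (−1.59, SE 0.25). Soleus library 1, the deepest, had the lowest value of the soleus libraries in each of the 13 genes. Their summed level ran from 97021 to 174917 CPM in soleus and from 302342 to 338046 CPM in TA. Whether library preparation or depth has a part in this was not tested.

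Other genes of oxygen, ketone and high-energy phosphate use were mixed, with 5 of 12 higher in soleus, 3 higher in TA and 4 not passing (8, 1 and 3 with totals). Without TA library 1 or TA library 3, 1 was higher in TA. Mb, myoglobin, read 2107, 1894 and 1419 CPM in soleus against 891, 727 and 1044 CPM (1.03, SE 0.18). Bdh1, of ketone body use, read 95.2, 64.2 and 93.1 CPM against 14.2, 6.01 and 15 CPM (2.91, SE 0.30). Car2, a carbonic anhydrase, differed by 2.84 (SE 0.25), and Ampd1, the muscle AMP deaminase, by −1.52 (SE 0.18).

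Regulators with known roles in fibre type differed in both directions. Of 33 tested of 35 listed, 5 were higher in soleus, 10 were higher in TA and 18 did not pass (13, 6 and 14 with totals). Without TA library 3, 6 were higher in TA, and without soleus library 2, 8 were higher in soleus. Prox1, a homeobox factor of slow fibres, read 11.8, 11.3 and 16.7 CPM in soleus, and in TA 1 library held a single read (1.0 CPM) and the other two none. Sox6, a repressor of slow genes, read 135, 97.4 and 111 CPM in TA and 30.1, 22.2 and 25.1 CPM in soleus (−2.14, SE 0.22). Maf, a large Maf factor linked to type IIB fibres, read 204, 174 and 149 CPM in TA and 12.6, 31.6 and 27.2 CPM in soleus (−2.92, SE 0.33). Eya4, a transcriptional coactivator, differed by −2.94 (SE 0.41), and Tbx15, a factor of glycolytic fibres, by −0.76 (SE 0.17). Rcan1, a target and inhibitor of calcineurin, the phosphatase of slow-fibre signalling, read 107, 135 and 95.2 CPM in soleus and 14.2, 17.4 and 13 CPM in TA (2.89, SE 0.50). Ppargc1a, the coactivator of mitochondrial biogenesis, did not pass, at −0.49.

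Among 14 tested of 30 limb patterning genes, 2 were higher in soleus, 2 were higher in TA and 10 did not pass (3, 1 and 10 with totals). The TMM counts were near the 9.91% and 9.31% of all genes tested that were higher in soleus and in TA. Without old TA library 1 or 3 both calls towards TA were lost, and without old TA library 2 or soleus library 1 there was 1. Hoxd8 read 7.77, 8.72 and 8.04 CPM in soleus against 0, 0.601 and 1.0 CPM in TA. Hoxd8 is a developmental transcription factor of the Hox family, whose expression is known to mark position in the adult limb.

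Cytoskeletal and stretch-response genes leaned towards soleus, with 11 of 25 higher in soleus, 4 higher in TA, 10 not passing and a median of 0.81 (18, 2 and 5 with totals). Csrp3, muscle LIM protein, read 396, 549 and 309 CPM in soleus and 6.32, 7.81 and 22.1 CPM in TA (5.21, SE 0.57, or 5.90 without old TA library 3). Ankrd2, an ankyrin repeat protein of slow fibres that responds to stretch, read 909, 999 and 694 CPM against 36.3, 58.9 and 34.1 CPM (4.31, SE 0.37). Pdlim1, a Z-disc adaptor, differed by 4.39 (SE 0.24), and Fhl1, a LIM protein, read 11018, 8205 and 9433 CPM against 2687, 1818 and 3696 CPM (1.81, SE 0.20). Actc1, the cardiac actin, went to TA (−2.11, SE 0.27), as did Xirp2 and Neb.

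Chaperones did likewise: 9 of 18 were higher in soleus, 1 was higher in TA, 8 did not pass, and the median was 0.63 (14, 0 and 4 with totals). Of the 7 tested small heat shock proteins (the Hspb genes and Cryab), 5 were higher in soleus and Hspb3 did not pass (0.26). Hspb8 was higher in TA (−0.65), a call lost without soleus library 1, soleus library 3, TA library 2 or TA library 3. Hspb7 read 5232, 3487 and 3240 CPM in soleus and 391, 574 and 602 CPM in TA (2.93, SE 0.23). Cryab (alpha-B crystallin) read 2397, 2363 and 1883 CPM against 437, 645 and 622 CPM (1.96, SE 0.17), and Hspb6 differed by 1.34 (SE 0.16). Hspa1a and Hspa1l, of the larger Hsp70 family, were higher in soleus by 2.69 and 1.59. The general chaperones Hspa5, Hspa8 and Hsp90ab1 did not pass, at 0.15 to 0.33.

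**Figure D4:**
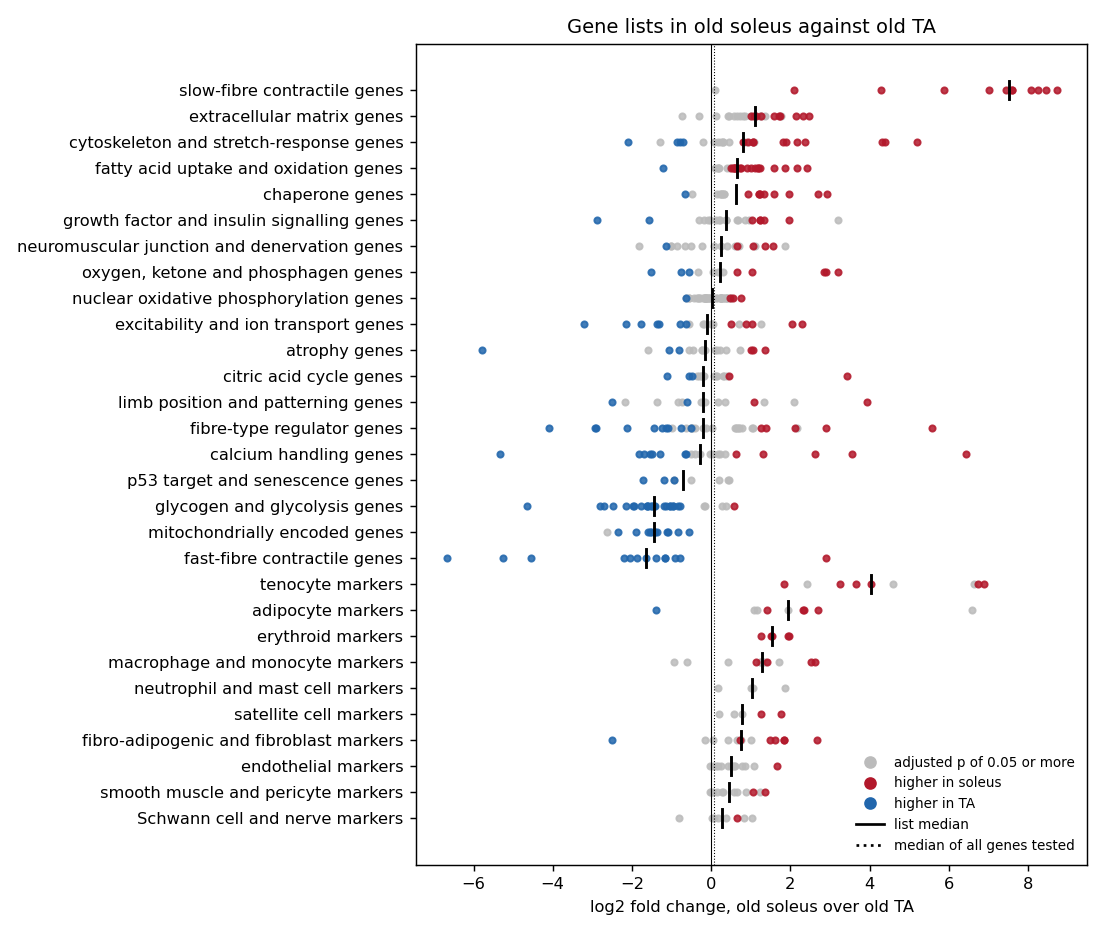
Log2 fold change of old soleus over old TA for each tested gene (points) of the process lists (upper block) and the cell type marker lists (lower block) with at least 4 tested genes; black bars are list medians and the dotted line is the median of all genes. Slow contractile genes centre at 7.53 and glycolytic and fast contractile genes at −1.43 and −1.64; points of genes with no read in a group are fitted values and not measured folds.

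Ion transport genes showed a swap of sodium pump beta subunits. Of 20 genes, 5 were higher in soleus, 7 were higher in TA and 8 did not pass (7, 5 and 8 with totals). The beta subunit Atp1b2 read 255, 207 and 229 CPM in TA and 26.4, 23.8 and 24.6 CPM in soleus (−3.20, SE 0.21). Atp1b1 went the other way, at 147, 144 and 183 CPM in soleus against 82.1, 73.9 and 78.2 CPM (1.02, SE 0.18). Fxyd6, a pump modulator, differed by 2.30 (SE 0.26), and the potassium channel Kcnc1 by −1.76 (SE 0.31).

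Genes of muscle growth and wasting included one of the largest differences towards TA. Mstn, myostatin, the secreted brake on muscle growth, read 1.26, 1.20 and 1.72 CPM in soleus and 56.1, 87.1 and 88.2 CPM in TA (−5.80, SE 0.35, adjusted p = 1.5e-11). Of the 17 atrophy genes tested, 3 were higher in soleus, 3 were higher in TA and 11 did not pass (6, 2 and 9 with totals). The ubiquitin ligase Trim63 (MuRF1) read 70.4, 71.2 and 71.3 CPM in soleus and 172, 127 and 149 CPM in TA (−1.07, SE 0.19), and the other classical ligase, Fbxo32, did not pass at −0.24. Bnip3, of mitophagy, was higher in soleus by 1.36 (SE 0.17). In growth factor and insulin signalling, 5 of 22 were higher in soleus, 2 were higher in TA and 15 did not pass (8, 2 and 12 with totals). The 2 related regulators of glucose transporter traffic were opposed, with Tbc1d1 at 7.37, 7.01 and 9.19 CPM in soleus against 57.6, 67.3 and 46.1 CPM (−2.87, SE 0.24) and Tbc1d4 at 1.04 (SE 0.26).

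Neuromuscular junction and denervation genes were 4 of 19 higher in soleus, 1 higher in TA and 14 not passing (7, 0 and 12 with totals). Over all genes tested, 19.2% were called on the TMM scale. Lrp4, the agrin receptor, differed by 1.07 (SE 0.23). Old soleus library 2 stood apart in several genes known to respond to loss of nerve input or to p53. Its Myog level was 85.5 CPM against 8.17 and 8.04 CPM in the other two, its Runx1 level 19.8 against 1.56 and 2.30 CPM, its Gadd45a level 31.6 against 4.44 and 4.31 CPM and its Cdkn1a level 59.4 against 11 and 12.4 CPM. None of these 4 genes passed between the muscles. Without that library Myog was higher in TA (−1.32, adjusted p = 0.025), and the list then held 3 genes higher in soleus and 5 higher in TA. Without soleus library 1 the list held 4 and 3, and its median went from 0.24 to −0.05. Of 15 listed p53 target and senescence genes 8 were tested, and 3 were higher in TA, none in soleus and 5 did not pass (2, 0 and 6 with totals). The 3 were Ccng1 (−1.19, SE 0.19), Eda2r (−1.72, SE 0.33) and Mdm2 (−0.93, SE 0.22).

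Genes of the matrix and of cells other than muscle fibres were called higher in soleus more often than in TA. Over all genes tested, 9.91% were higher in soleus and 9.31% in TA, and not every list below was above that share. In bulk tissue, more cells of a type and more RNA per cell cannot be told apart. Of 27 extracellular matrix genes, 10 were higher in soleus, none in TA and 17 did not pass, with a median of 1.10 (19 and 1.48 with totals). Tnxb, tenascin X, read 20.1, 13.7 and 15.8 CPM against 2.37, 4.81 and 1.0 CPM (2.47, SE 0.45, or 3.25 without old TA library 2), and Fn1, fibronectin, 45.5, 27.5 and 38.5 CPM against 6.32, 12 and 16 CPM (1.73, SE 0.30). Col3a1 did not pass, at −0.31.

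Tendon-cell markers had the highest median of the marker lists. Of 9 tested of 10 listed (Scx, the defining transcription factor, had too few reads), 6 were higher in soleus, none in TA and 3 did not pass. Their median was 4.04, or 2.43 with the 3 genes that had no read in TA held at their bound, and their summed level was 201 to 297 CPM in soleus and 25.8 to 37.1 CPM in TA. Comp, a matrix protein of tendon and cartilage, read 30.3, 27.2 and 31 CPM in soleus and 0, 0 and 1.0 CPM in TA. Fmod, fibromodulin, read 80.9, 111 and 155 CPM against 14.2, 9.62 and 13 CPM (3.25, SE 0.35). Chad, chondroadherin, read 27.4, 38.3 and 37.6 CPM against 3.95, 0 and 3.01 CPM. The labels do not say how much tendon was taken with each muscle, and the part of tendon in the differences was not tested.

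The other marker lists with calls towards soleus had lower medians. Fibro-adipogenic and fibroblast markers were higher in soleus in 6 of 13 genes, lower in 1 (Cd55, −2.50) and summed to 945 to 1345 CPM in soleus and 718 to 724 CPM in TA, while Pdgfra, Dcn and Lum, which define these cells, did not pass. With totals as the scale 10 were higher in soleus and 1 lower. Of the macrophage markers, 4 of 12 were higher in soleus (summed level 80.1 to 110 against 37.3 to 45 CPM), and 2 without old TA library 1. Adipocyte markers were higher in 4 of 9 and lower in 1 (249 to 357 against 79.2 to 123 CPM), and only 1 was higher without old TA library 3 and 2 without library 1. With totals 6 were higher and none lower, and without soleus library 1 or 2 the counts were 5 and none. Cfd, complement factor D, read 72.5, 115 and 111 CPM against 4.74, 31.3 and 6.01 CPM. Endothelial markers were higher in 1 of 14 (438 to 626 against 331 to 398 CPM), smooth muscle and pericyte markers in 2 of 12 (1944 to 2488 against 1137 to 1386 CPM), satellite cell markers in 2 of 5 (210 to 262 against 78.9 to 118 CPM) and Schwann cell markers in 1 of 8 (126 to 140 against 63.2 to 123 CPM). The 2 smooth muscle and pericyte calls were Des (mean 1677 against 805 CPM, most of that sum) and Kcnj8 (23.9 against 9.63 CPM), and Acta2 did not pass. The 2 satellite cell calls were Sdc4 (163 against 67.7 CPM) and Itga7 (49.9 against 14.7 CPM), and Cdh15 did not pass. How much of these reads came from muscle fibres was not tested. The endothelial and Schwann cell counts were near the 9.91% of all genes tested that were higher in soleus. With totals as the scale the counts were 6 endothelial, 5 smooth muscle and pericyte, 3 satellite cell and 1 Schwann cell marker. On that scale 2667 of all 10859 genes were higher in soleus, so the 9.91% does not apply to these counts. Without soleus library 1 or TA library 1, 2 endothelial markers passed, and without soleus library 2, soleus library 3 or TA library 3 no Schwann cell marker did.

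All 5 erythroid markers tested, globins and Alas2, were higher in soleus, summing to 514 to 1335 CPM against 231 to 415 CPM, with soleus library 3 the highest. Without old TA library 1 or library 2, 3 of the 5 passed. The alpha globins Hba-a1 and Hba-a2 are near-identical and may share reads. No T or NK cell marker had enough counts to be tested, none of 4 neutrophil and mast cell markers passed, and 1 skin marker was tested and did not pass. Of 2 B and plasma cell genes tested, Ighm, an immunoglobulin heavy chain, was higher in TA, at 138, 140 and 48.1 CPM against 2.72, 4.62 and 1.15 CPM (−5.30, SE 0.61); Igkc, the kappa chain, was uneven in TA, at 86.1, 7.81 and 1.0 CPM, and both passed without TA library 2 or TA library 3. The part of these cells in the muscle contrast was not tested.

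Several genes with large differences belonged to none of the lists. Nlrc3, a regulator of innate immune signalling, read 41, 27.7 and 33.2 CPM in old soleus and had no read in old TA, which puts it at least 44.5-fold higher in soleus against a floor of 3 reads over the 3 TA libraries. Fhl2, a LIM protein abundant in heart, read 18, 21.4 and 20 CPM with no read in TA (at least 25.9-fold higher), and Slc22a2, an organic cation transporter, 18.9, 15.9 and 16.4 CPM with none in TA (at least 22.3-fold higher). Lgi1 read 39.6, 40.7 and 52.9 CPM in soleus and at most 1.0 CPM in TA. Tecrl, a gene linked to inherited cardiac arrhythmia, read 20.5, 29.8 and 55.7 CPM against 0, 0.601 and 0 CPM. Towards TA, Mss51 read 18.2, 10.2 and 37.1 CPM against 0.252, 0.684 and 1.01 CPM (−5.25, SE 0.56, and −4.55 without soleus library 1 or −4.64 without TA library 3). Mylk4, a kinase related to myosin light chain kinases, read 830, 815 and 578 CPM in TA against 45.5, 35.1 and 43.4 CPM (−4.16, SE 0.24). Gm10108, a gene model at 142, 169 and 120 CPM in soleus with no read in TA, also had no read in 1 young TA library and 74.3 and 139 CPM in the other two, and Gm10231 varied in a similar way. The call of Gm10108 was lost without soleus library 1 or any 1 of the old TA libraries (adjusted p of 0.052 to 0.070), and that of Gm10231 without any 1 of the 6 old libraries. Such predicted genes may share reads with near-identical copies, and they are given as uncertain.

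In young mice, muscles compared by other libraries gave the same direction for most of these genes. Of the 2087 genes called in old mice, 1908 (91.4%) had the same sign between young soleus and young TA. The same share was not taken over all genes tested, so how far it is particular to the called genes is not known. In young mice 1159 genes (10.7%) were called, and 786 were called at both ages with the same sign, 37.7% of the old calls and 67.8% of the young calls. Myh7 had log2 fold changes of 8.73 in old and 8.02 in young mice, Tpm3 7.45 and 7.31, Pvalb −5.33 and −4.57, Mstn −5.80 and −5.20, and Slc16a3 −4.64 and −4.46, and the difference between ages passed for none of these 5 (adjusted p of 0.67 to 0.88).

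The muscle contrast itself differed between ages for 14 genes (0.129% of those tested, and 1233 genes at an unadjusted p under 0.05), and in 13 of them the change was towards soleus in old mice. Myh2 was among them. It read 4815, 3098 and 4141 CPM in old soleus and 2401, 3390 and 3565 CPM in young soleus, and 620, 371 and 622 CPM in old TA against 1129, 2160 and 2599 CPM in young TA. The contrast was 2.90 in old and 0.67 in young mice, a difference of 2.24 (SE 0.37, adjusted p = 0.011), whose call was lost without old soleus library 1 (2.09, adjusted p = 0.12). As a share of the 4 adult myosins, Myh2 in TA was 2.92%, 1.87% and 3.24% in old and 5.41%, 9.74% and 14.8% in young mice.

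Of the 14 genes, 6 were called in each of the 12 fits that leave out 1 old or young library (Fmod, Prelp, Thbs4, Gsn, Sbk2 and Smtnl1), and 8 lost the call in at least 1. Fmod, fibromodulin, a collagen-binding matrix protein, read 80.9, 111 and 155 CPM in old soleus but 12, 11.4 and 21.9 CPM in young soleus, and 14.2, 9.62 and 13 CPM in old TA but 29.1, 36.7 and 37.3 CPM in young TA, so the muscle contrast turned from −1.23 to 3.25 (difference 4.49, SE 0.46, adjusted p = 5.1e-05). Prelp, a leucine-rich repeat protein of the same family, had contrasts of −0.23 in young and 2.26 in old mice, and Thbs4 and Gsn showed the same direction (differences of 2.11 and 1.59). Comp read 4.31, 3.45 and 5.38 CPM in young soleus and 0.838, 3.07 and 5.47 CPM in young TA. Its difference between ages was 6.16 (SE 1.01, adjusted p = 0.0035), 5.44 without old TA library 2 (adjusted p = 0.058) and 9.95 without old TA library 3, which leaves no Comp read in old TA. Smtnl1, smoothelin-like 1, was higher in soleus at both ages, by 3.01 in old and 1.27 in young mice (difference 1.74, SE 0.27).

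**Figure D5:**
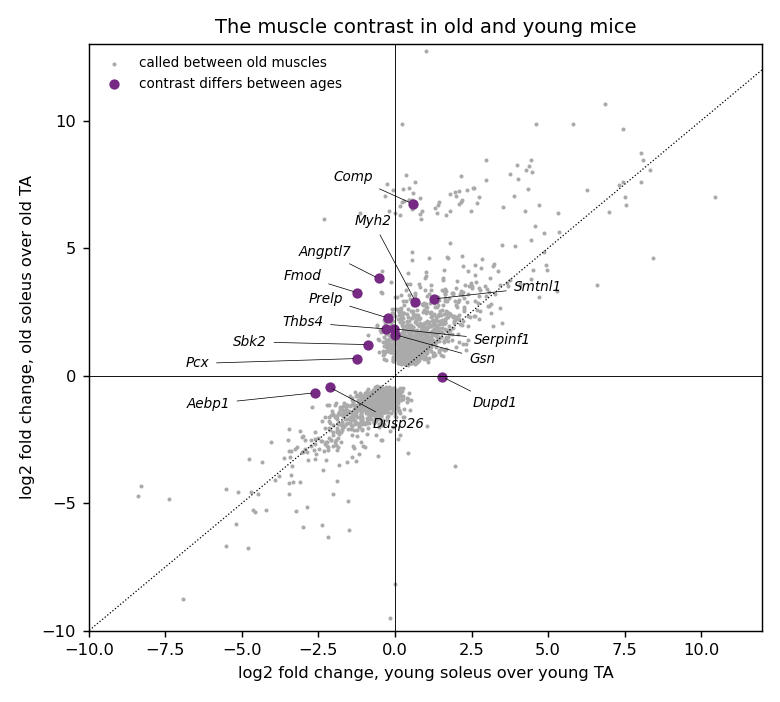
Log2 fold change of soleus over TA in young mice (x axis) and in old mice (y axis) for the genes called between old muscles (grey) and the 14 genes whose contrast differed between ages (purple). Most grey points lie at the lower left or upper right, and 13 purple points lie above the dotted line of equal contrasts and Dupd1 below it.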

How the data were processed

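Messenger RNA of wild-type soleus, TA and EDL (extensor digitorum longus) muscles, young and old, was sequenced in 18 libraries, made with the Clontech SMARTer kit per the labels' protocols. Each deposited file lists, per the file headers, a length, an effective length, TPM and a number of reads for every transcript. The authors' expected counts (the number of reads, not whole) and the authors' TPM values (scaled by length and depth) were used as deposited. The submitters' processing notes name an aligner and a counter (STAR 2.5.1a; featureCounts 1.4.6-p5 of Subread) that do not write this layout, so the program behind the files, and their genome build, remain unknown here.

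Expected counts were summed to 29542 genes with GENCODE M21 (GRCm38), which held 83739 of the 86127 transcripts, and rounded. 2 EDL libraries whose file names carry the other age were left out, leaving 16 in 6 groups. EDL entered the fit to estimate the spread and is not compared here. Genes were filtered with filterByExpr (minimum count 10), scaled by TMM and tested with the quasi-likelihood test of edgeR 4.0.16, two-sided, and p-values were adjusted by Benjamini-Hochberg across the 10859 genes kept. The standard error (SE) is the size of a log2 fold change over the square root of F. Shares of related genes used gene sums of the deposited TPM. Folds against groups with no read used a floor of 3 reads over the group, which covers counting error only. The test was run on simulated data before use.

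Members, lists and tests were chosen with earlier results of these data known. Named genes were the 12 largest and 12 smallest fold changes among called genes of at least 10 CPM without overlap, the 6 largest CPM differences in each direction, up to 4 genes per list (3 per marker list) by p, and the 6 genes of smallest p for the difference with age. Further list members, the remaining genes that differ with age, and Lgi1, Tecrl and Mylk4 outside the lists were described after their values were seen. Promoters were those of 7 contractile genes with a RefSeq entry, picked after their values were seen. Alternatives were other scalings, tools, filters, offsets and library sets, each replicate left out, a replicate block, and, chosen after seeing the data, shares from read counts. Replicate numbers were not used to pair the samples in the main fit, as the labels tie them to nothing shared. Values of some list members are not reported here.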

Additional observations from a re-analysis of the deposited data

Results flagged for a closer look

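The muscle contrast differed between old and young mice, by a test of the difference itself, for 14 genes. The difference is the log2 fold change of soleus over TA in old mice minus that in young mice, with edgeR and Benjamini-Hochberg adjustment over all genes. Several encode secreted or matrix proteins, a grouping made after the genes were seen and not tested: Fmod (4.49), Prelp (2.50), Thbs4 (2.11), Comp (6.16), Aebp1 (1.94), Serpinf1 (1.87) and Angptl7 (4.35). Angptl7 read 45.9, 79.4 and 79.4 CPM in old soleus and 3.95, 5.41 and 5.01 CPM in old TA, against 13.3, 6.71 and 9.42 CPM in young soleus and 6.42, 15.6 and 22.9 CPM in young TA. Of the 12 fits that leave out 1 old or young library, the call of Angptl7 was lost in 10 (all but those without young soleus library 1 or young TA library 1, adjusted p up to 0.17) and that of Serpinf1 in 10 (all but those without old soleus library 1 or young TA library 1, up to 0.16). That of Aebp1 was lost in 5, without old TA library 1 or 2, young soleus library 1 or 2, or young TA library 2 (up to 0.13), and that of Comp in 1, without old TA library 2. Aebp1 was not called between old muscles (−0.67) and was lower in young soleus than in young TA (−2.61). Tendon-cell markers summed to 201 to 297 CPM in old soleus, and their part in these differences was not tested.

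The other genes were Myh2 (2.24), Sbk2 (2.10), Smtnl1 (1.74), Gsn (1.59), Pcx (1.91), Dusp26 (1.68) and Dupd1 (−1.58). Sbk2, a protein kinase gene, read 185, 130 and 130 CPM in old soleus, 60, 55.9 and 77.2 CPM in old TA, 47.9, 49 and 60.9 CPM in young soleus and 106, 121 and 60.2 CPM in young TA. Dusp26, a phosphatase gene, read 27.6, 40.3 and 46.1 CPM in old TA and 79.1, 67.2 and 57.7 CPM in young TA. Dupd1, also a phosphatase gene, read 64.7, 114 and 84.2 CPM in old TA and 19.8, 21.1 and 19.9 CPM in young TA. Its contrast moved towards TA, unlike the other 13, but its call was lost in 9 of the 12 fits (all but those without old soleus library 1, old soleus library 2 or old TA library 1, adjusted p up to 0.19). The call of Dusp26 was lost in 6, without old TA library 1 or 2, young soleus library 2 or 3, or young TA library 1 or 2 (up to 0.10). That of Pcx was lost in 5, without old TA library 1 or 2, young soleus library 2 or 3, or young TA library 2 (up to 0.10), and that of Myh2 in 1, without old soleus library 1.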

How the results depend on the processing

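The count of 2087 genes called between old soleus and old TA stayed between 1488 and 3119 over the alternatives in scaling, tool, filter, offset and library set, and between 1464 and 2009 with each old library left out (786 to 1034 higher in soleus and 677 to 1000 higher in TA). The split by direction moved most with totals as the scale (2667 higher in soleus and 452 higher in TA, 85.5% towards soleus against 51.6% with TMM) and with limma-voom (578 and 910, 38.8%). The cause of the voom split was not tested. With only the 6 old libraries in the fit, 1563 of 9059 genes were called. The 14 genes whose contrast differed with age became 49 with DESeq2, 6 with limma-voom, 228 with no filter, 27 with only soleus and TA libraries and 6 with all 18 libraries by title, and 8 to 18 with each library left out. The count was 8 without old TA library 2, without young soleus library 2 and without young TA library 2. The cause of these changes was not tested.

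Replicate numbers gave no sign of pairing: the deviations of same-numbered old soleus and old TA libraries correlated at −0.0145, 0.00838 and 0.0069. With 3 libraries per group and few reads in old TA, these values cannot show whether animals were shared. The replicate block gave 1836 calls between old muscles (918 in each direction) and 13 for the difference with age. Of 244 called genes among the lists and named genes, 191 were called in each of the 6 fits that leave out 1 old library and 53 lost the call in at least 1. Among those named above, Ucp3, Alas2, Hspb8, Gm10108 and Gm10231 belong to the 53. Myog ran from −1.32 (without old soleus library 2) to 1.19, and Ttn, at −0.22, turned to 0.83 with an offset for transcript length. Shares of related genes taken from read counts in place of TPM kept their direction in all 17 and moved by more than 1 SD in 6.

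The shallow old TA libraries limit genes of low level. A floor of 3 reads over the group is 0.764 CPM in old TA and 0.092 CPM in old soleus, so absence from TA is known less well than absence from soleus. Thinning all libraries to the shallowest left 1543 calls among 7591 genes.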
